A study of Mus musculus with 4 samples.

Results

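The stretch of mouse chromosome 9 from 20 to 120 Mb (mm10) was taken with every SNV and indel that both variant callers listed there with at least 10 reads, 3 or more of them carrying the variant, and a share of variant reads (the allele fraction) of 0.10 or higher. This gave 7350 sites over the 4 samples, of 58880 in the whole genome: 6583 SNV sites and 767 indel sites. The stretch was chosen by its number of confident variants in each sample, which differed, so those counts are given as a description and were not tested.

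All 4 samples were c-Kit+ leukemia cells taken from the bone marrow of moribund mice of genotype E2-KO, which the series title gives as an Nras-G12D allele with knockout of Ezh2, on a C57BL/6 background. Nras encodes a RAS GTPase, and Ezh2 the histone H3 lysine 27 methyltransferase of the Polycomb system. Exons were captured from genomic DNA and sequenced, and the samples formed 1 group, numbered here as replicates 1 to 4 by listing order. No normal tissue, other genotype or untreated sample enters the comparison, and the labels name neither the promoter behind the knockout nor the animals, so spread between samples may be technical in part. In the gene body of Nras each sample held 1 confident SNV, the same G-to-A change, with fractions of 0.478, 0.454, 0.311 and 0.427 in replicates 1, 2, 3 and 4. Ezh2 held no confident call in any sample, and the call files do not show whether exons of it are deleted.

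The mm10 reference is the sequence of C57BL/6J, an inbred strain, so each call is a difference from that strain's sequence. In a diploid genome a variant on one copy of a chromosome is carried by about as many reads as the reference base, and a variant on both copies by nearly all reads. Variants that lie on one DNA molecule are passed on together until recombination separates them, and such neighbours share an edge. Capture for exome sequencing covers exons and the bases beside them, so counts along a chromosome also follow where exons lie.

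To show what the variants look like in sequence, 5 of the 7 deletions of at least 12 bases that were called in more than 1 sample are written out from the call files on the plus strand, with the base before the deletion in lower case and the deleted bases in capitals.

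Tbrg1, chr9:37649984-37650001: aCAGAAGGCTAAAGATGGT

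Olfr924, chr9:38848743-38848760: gGCTGTCATCATCTCTTAT

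Kmt2a, chr9:44808899-44808910: cCCAGCACCAGCA

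Zw10, chr9:49073163-49073174: gTACCAGGTGGTT

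Map2k5, chr9:63357918-63357935: gCGCACACACACACACACA

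The 18-base deletion in Tbrg1, a regulator of the p53 pathway, was called in replicates 1, 2 and 3 with fractions of 0.347, 0.326 and 0.246. The 18-base deletion in the olfactory receptor gene Olfr924 was called in the same 3 samples, with fractions of 0.415, 0.389 and 0.319. The 12-base deletion in Kmt2a, which encodes a histone H3 lysine 4 methyltransferase, was called in 8 of 11 reads in replicate 1 and 10 of 25 in replicate 3. Zw10, a component of the mitotic checkpoint, and Map2k5, a MAP kinase kinase, had their deletions in replicates 2 and 3, with fractions of 0.480 and 0.244 for Zw10 and 0.390 and 0.311 for Map2k5. None of the 5 was called in replicate 4. Whether they fall in coding exons was not determined, since gene starts and ends but no exons were at hand.

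The number of variants differed widely between samples. Replicate 1 held 1467 SNVs and 155 indels in the stretch, replicate 2 held 2121 and 261, replicate 3 held 5940 and 616, and replicate 4 held 51 and 24. The mean was 2394.8 ± 2516.4 SNVs (SD, n = 4). In the rest of the genome the counts lay closer together, at 32758, 29946, 24960 and 21467 SNVs in replicates 1 to 4. The stretch therefore held 4.29%, 6.61%, 19.2% and 0.237% of each sample's SNVs. SNVs of the stretch had median depths of 49, 42, 53 and 81 reads, and those of the rest of the genome 52, 47, 55 and 55 reads. Replicate 3, with most variants here, had the fewest but one in the rest of the genome.

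**Figure D1:**
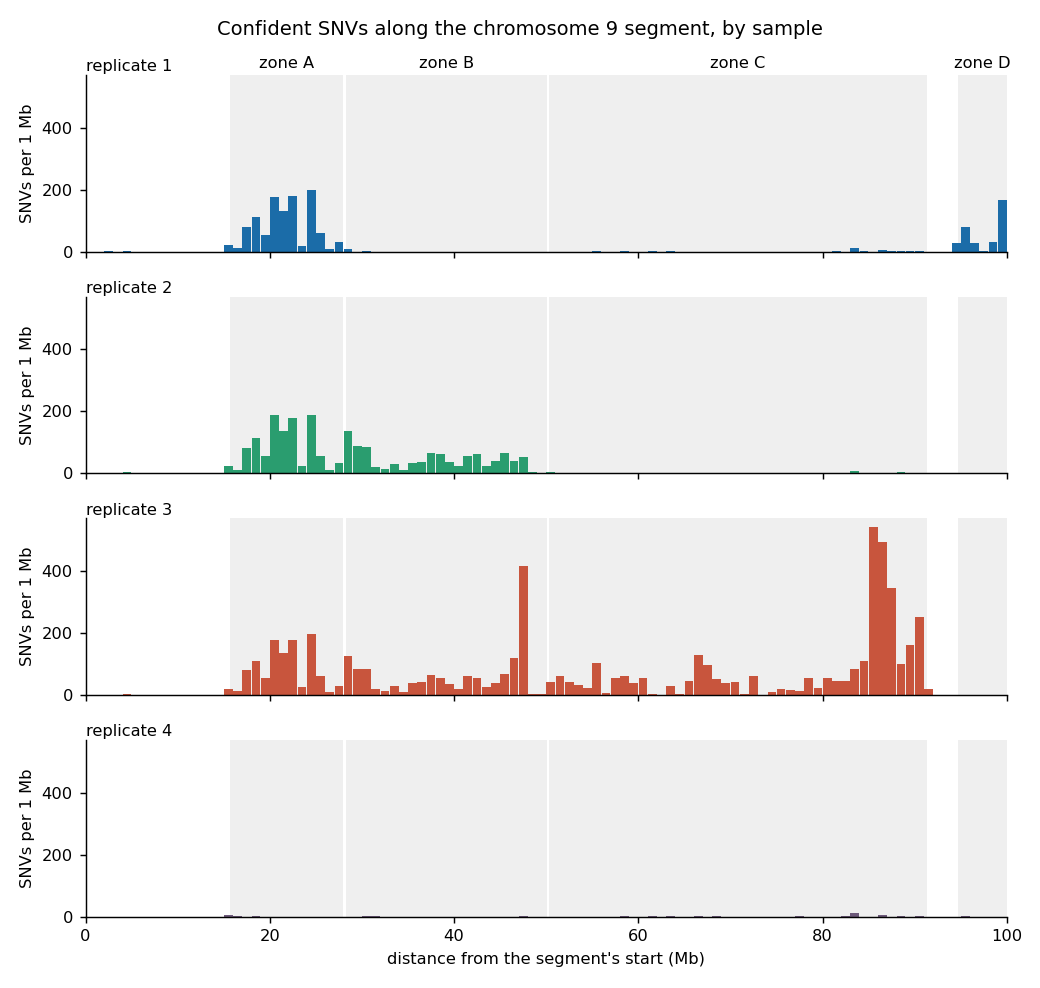
SNVs per 1 Mb (vertical axis) against the distance from the 20 Mb start (horizontal axis, Mb), 1 panel per sample, with the 4 zones in grey. Replicates 1, 2 and 3 start together, end at different places, and replicate 4 stays near 0; the highest bin holds 543 SNVs, in replicate 3.

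The variants lay in long blocks with shared starts and different ends, and 4 zones describe them by which samples carried variants. Zone A ran from 35646755 to 48000881 (12.4 Mb, 220 protein-coding genes) and was carried by replicates 1, 2 and 3. Zone B ran from 48319288 to 70126056 (21.8 Mb, 237 genes) and was carried by replicates 2 and 3. Zone C ran from 70286844 to 111378045 (41.1 Mb, 382 genes) and was carried by replicate 3. Zone D began at 114681427 and was carried by replicate 1; it went on past the end of the stretch to 124389053, with 184 of its 519 SNVs beyond 120 Mb. Replicate 4 carried none of them.

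Counts were near-equal among the 3 carriers of zone A, and low in the samples that did not carry a zone. Zone A held 1081, 1095 and 1090 SNVs in replicates 1, 2 and 3, against 4 in replicate 4. Zone B held 997 and 1421 in replicates 2 and 3, and 7 and 5 in replicates 1 and 4. Zone C held 3421 in replicate 3, and 34, 19 and 36 in replicates 1, 2 and 4. Zone D held 335 within the stretch in replicate 1, and 0, 0 and 1 in replicates 2, 3 and 4. Outside the zones only 10, 10, 8 and 5 SNVs remained in replicates 1 to 4.

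In 2 Mb bins, counting a bin as dense from 10 SNVs, 11, 17, 38 and 1 of the 50 bins were dense in replicates 1 to 4. Over the whole genome 21.3%, 20.1%, 20.5% and 16.8% of bins were dense in the same samples. The number of dense bins over the genome was thus alike in replicates 1 to 3, while that in the stretch was not. These are the counts that chose the stretch.

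The genes at the edges were as follows. Zone A began inside Pate2 and Pate3, overlapping genes of a family of small secreted proteins of the male genital tract. It ended between Cadm1, a cell adhesion molecule, and Nxpe4. Zone B began inside the overlapping genes Nxpe4 and Nxpe2 and ended inside Fam81a. Zone C began in Myo1e, an unconventional myosin, and ended in Trank1. Zone D began between Cnot10, a subunit of the CCR4-NOT deadenylase, and Dync1li1, a dynein light intermediate chain, and its last SNV before 120 Mb lay in Csrnp1.

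The right edge of zone C and the left edge of zone D were ends of blocks chained across gaps of up to 1 Mb. By that rule the 1 Mb beyond them held no confident SNV of the carrier. Counts of SNVs of any depth include confident ones, so their fall at these 2 edges was in part fixed by the rule. In the last 1 Mb of zone C, SpeedSeq listed 281 SNVs of any depth in replicate 3, and 2 in the first 1 Mb after it. In the first 1 Mb of zone D it listed 569 in replicate 1, and 8 in the last 1 Mb before it. Between zones A and B lay 318 kb without a confident SNV. SpeedSeq sites of any depth lay inside this gap. The last one that replicate 1 shared with replicate 2 or 3 and not with replicate 4 was at 48058752. The first one after it that replicates 2 and 3 shared and replicate 1 lacked was at 48155452. Each of these limits was read from only 3 such sites, and a site may be lacking for want of depth. Replicate 1 also held 6 confident SNVs in the first 1 Mb of zone B. Chained across gaps of up to 1 Mb, its block ended at 48451300, between Nxpe4 and Rexo2. From the end of zone B to 1 Mb into zone C, replicates 2 and 3 shared no SNV of any depth that replicate 4 lacked. The left edge of zone A rested on fewer sites, with 21, 22 and 20 confident SNVs in its first 1 Mb in replicates 1, 2 and 3.

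When SNVs of 1 sample were chained across gaps of up to 1 Mb with at least 20 SNVs per block, 6 blocks resulted, of which replicates 1 to 4 held 2, 1, 3 and 0. The breaks within zone C in replicate 3 fell where few genes lie. They spanned 80465377 to 81677577 with 1 protein-coding gene, 81677594 to 82876640 with 2, and 93391808 to 94416831 with none. With gaps of up to 0.5 Mb the count of blocks was 34, and from VarScan2 alone it was 11. Chaining also joined zone A to a cluster at 35305295 to 35305476, between Rpusd4 and Cdon, where 5 of 6 SNVs were confident in all 4 samples, replicate 4 included, and the sixth in replicate 1 alone.

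**Figure D2:**
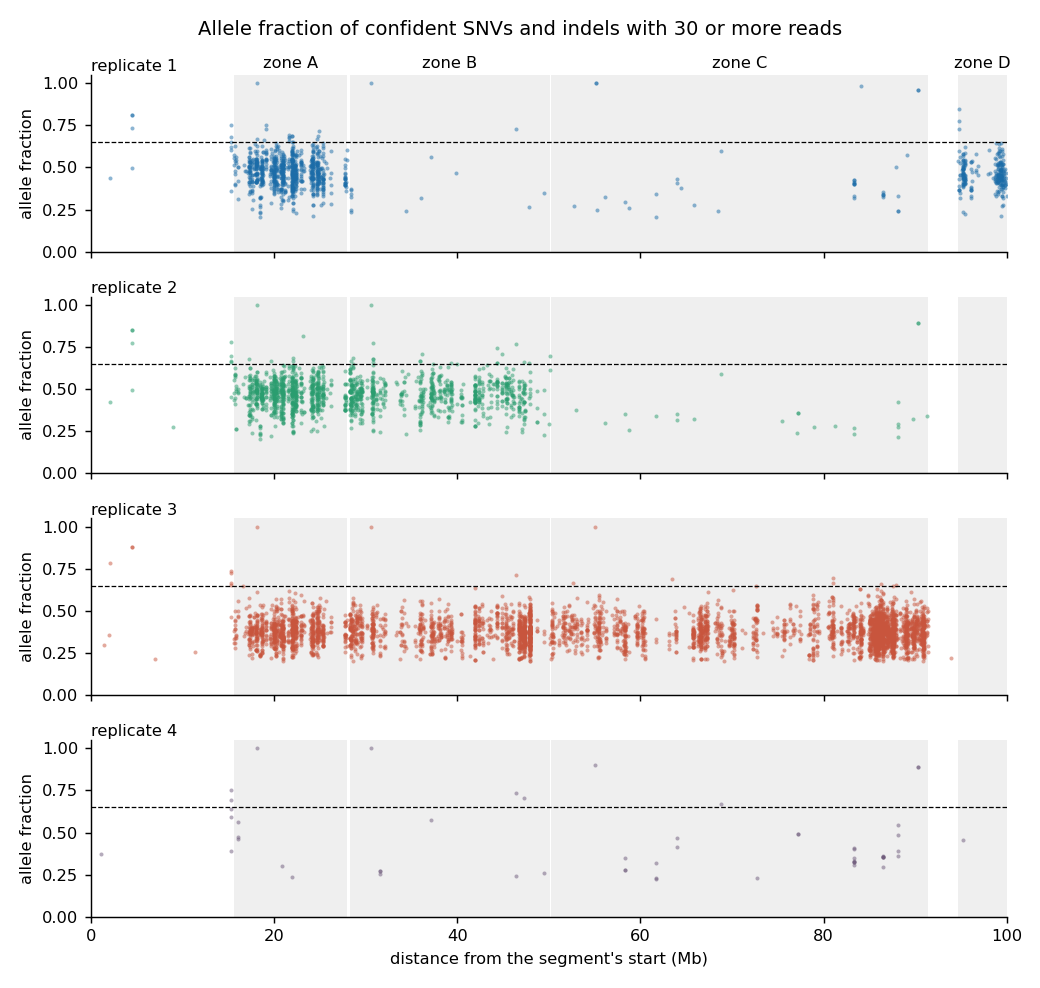
Allele fraction (vertical axis) of confident SNVs and indels with at least 30 reads against the distance from the 20 Mb start (horizontal axis, Mb), 1 panel per sample; the dashed line is 0.65 and zones are grey. Points of replicates 1 and 2 centre near 0.47 in their zones and those of replicate 3 near 0.38, with few points above the line.

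Allele fractions of nearly all SNVs lay below 0.65, called the lower range, and few above. At a depth of at least 30 reads, 2.48%, 2.25%, 0.361% and 16.3% of SNVs in the stretch were at 0.65 or more in replicates 1 to 4 (26, 32, 16 and 7 SNVs). In the rest of the genome these shares were 22.3%, 22.0%, 31.8% and 49.7%. The upper range was thus sparser in the stretch than elsewhere in each of the 4 samples.

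Within the lower range the median fraction in the stretch was 0.465, 0.472, 0.377 and 0.358 in replicates 1 to 4, over 1024, 1392, 4421 and 36 SNVs. In the rest of the genome it was 0.444, 0.455, 0.376 and 0.448. The difference, stretch minus rest, was 0.021, 0.017, 0.00028 and -0.090, with a mean of -0.013 ± 0.052 (SD, n = 4), so it was smaller than the spread between samples. Without replicate 4 the mean difference was 0.013. The lower median of replicate 3 was therefore seen in both parts of its genome. Both callers together listed no SNV of the stretch in any sample below a fraction of 0.20, and 4.03% of the lower-range SNVs of replicate 3 lay under 0.25, against 1.37% and 0.790% in replicates 1 and 2.

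The medians were steady along the chromosome within each sample. In replicate 3 they were 0.377, 0.379 and 0.375 in zones A, B and C. In replicate 2 they were 0.475 and 0.473 in zones A and B. In replicate 1 they were 0.474 and 0.455 in zones A and D. The middle 90% of fractions ran from 0.265 to 0.512 for replicate 3 in zone A, and from 0.345 to 0.605 and 0.333 to 0.600 for replicates 1 and 2 there.

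The same sites could be compared between samples where zones overlapped. At 728 SNVs of zone A with at least 30 reads in both, the fraction in replicate 3 was lower than in replicate 1 at 87.0%, with a median difference of -0.097. At 714 SNVs it was lower than in replicate 2 at 84.2%, with a median difference of -0.096. Between replicates 1 and 2 the median difference was 0.0051 over 696 SNVs, with replicate 1 lower at 46.7%. In zone B replicate 3 was lower than replicate 2 at 82.9% of 595 SNVs, with a median difference of -0.091. Neighbouring sites share DNA molecules, so sites are not independent and no p is given.

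A few sites had samples on both sides of the 0.65 bound. At 31 SNVs with at least 30 reads in each, 1 sample was in the upper range and another in the lower, and at 23 of these the fractions differed by over 0.2. In Fam81a, at the last SNV of zone B (70126056), the fraction was 0.697 in replicate 2 and 0.303 in replicate 3, each over 33 reads. In Alg9, which encodes a mannosyltransferase of N-glycan assembly, it was 0.774 and 0.419 in replicates 2 and 3 at 50789667. In Thsd4 (59987366) it was 0.652 and 0.323, and in Dis3l (64325777), an exosome-associated ribonuclease gene, it was 0.744 and 0.426. Ecsit, a signalling adaptor and mitochondrial complex I assembly factor, lay before zone A at 22078209 with fractions of 0.440, 0.422 and 0.783 in replicates 1, 2 and 3. All of these but the Ecsit site were higher in replicate 2 than in replicate 3.

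Carriers mostly held the same sites. Of 1234 SNV sites in zone A that were not confident in replicate 4, 929 (75.3%) were confident in all 3 carriers, and 1091 (88.4%) were listed by a caller in all 3. Sites confident in a single carrier numbered 47, 49 and 47 in replicates 1, 2 and 3. Over the whole stretch, 3992 SNV sites (60.6%) were confident in replicate 3 alone, 932 in replicates 1, 2 and 3, 931 in replicates 2 and 3, and 394 in replicate 1 alone. Private SNVs, which neither caller listed at any quality in another sample, numbered 346, 71, 3907 and 2 in replicates 1 to 4. These counts follow the zones, since most of replicate 3's lie in zone C.

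**Figure D3:**
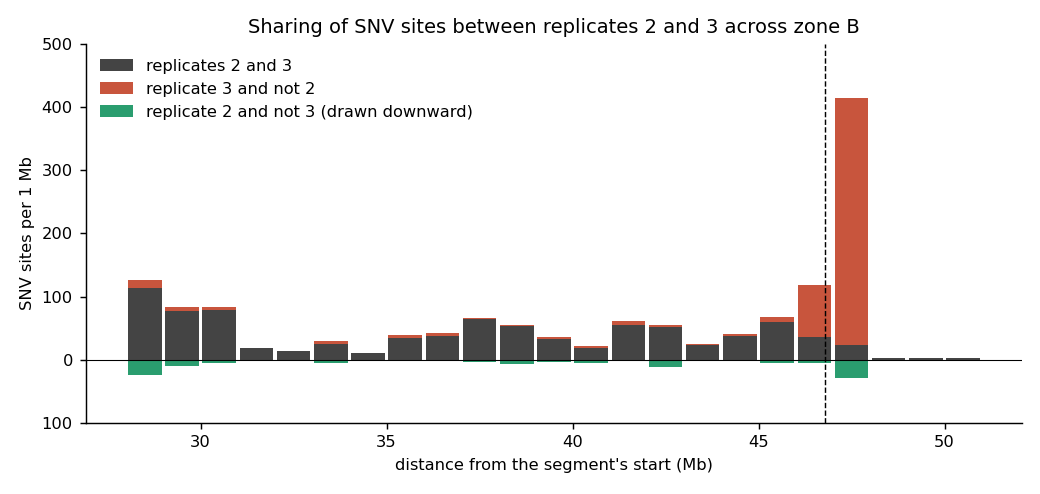
SNV sites per 1 Mb (vertical axis) across zone B against the distance from the 20 Mb start (horizontal axis, Mb), split into sites of both replicates 2 and 3, of replicate 3 and not 2, and, drawn downward, of replicate 2 and not 3. Left of the dashed line most sites are shared; to its right 1 bin holds 392 sites of replicate 3 that replicate 2 lacks.

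Inside zone B, replicates 2 and 3 matched up to a point and differed beyond it. That point lay between an SNV in Car12 and one in the next gene, Aph1b. From the start of zone B to 66763276, in the carbonic anhydrase gene Car12, 839 of 912 SNVs of replicate 3 (92.0%, exact 95% interval 90.0 to 93.7) were also confident in replicate 2, and 90.1% of the 931 of replicate 2 in replicate 3. The 73 SNVs of replicate 3 that replicate 2 lacked had a median depth of 15 reads, and the 92 of replicate 2 that replicate 3 lacked had 16, against 43 in replicate 2 at shared sites. Shallow depth thus went with the missing matches on this side.

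From 66784561, 21.3 kb further on and inside Aph1b, to 68 Mb, replicate 3 held 496 SNVs and only 23 of them (4.64%, 2.96 to 6.88) were confident in replicate 2. Replicate 2 held 54, of which 31 were not confident in replicate 3. Of the 473 that replicate 2 lacked, 1 was listed there by a caller at any quality, and of the 31 that replicate 3 lacked, 1 was listed in replicate 3. The replicate 3 sites that replicate 2 lacked from 66784561 to the end of zone B had a median depth of 52.5 reads. Beyond 68 Mb sharing returned, with 8 of 9 SNVs of replicate 3 also in replicate 2. These last 9 sites are few, and their share has an interval of 51.8% to 99.7%. The boundary was read from this same sharing, and neighbouring sites are not independent. The intervals on both sides of it thus describe the split and do not test it.

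Single genes showed the change over a short distance. All 19 SNVs of replicate 3 in Car12 were also in replicate 2. In Aph1b and Aph1c, which encode subunits of the gamma-secretase protease, 0 of 22 and 0 of 9 were. In the small GTPase gene Rab8b 0 of 9 were, and replicate 2 had 1 of its own. In Lactb, a mitochondrial serine protease-like gene, 0 of 17 were. In Tln2, which encodes the cytoskeletal linker talin 2, 15 of 181 were shared, and replicate 2 held 24 more that were its own. In Vps13c, which encodes a lipid transport protein at contacts between organelles, 4 of 210 were shared. The median fraction after the boundary was 0.457 over 43 SNVs in replicate 2 and 0.366 over 385 in replicate 3, close to 0.473 and 0.392 before it.

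Of the 1035 protein-coding genes in the stretch, 568 (54.9%) held at least 1 confident SNV, against 17.7% of 21631 in the whole genome, and 320 held an indel. By sample, 145, 243, 529 and 11 of the genes were hit in replicates 1 to 4, and the genome-wide shares were 12.1%, 11.7%, 12% and 8.42%. Within zone A, 102, 103 and 102 of 220 genes were hit in replicates 1, 2 and 3. In zone C, 286 of 382 (74.9%) were hit in replicate 3, and in zone D 27 of 37 in replicate 1. Before zone A, 1 of 134 genes was hit in each of replicates 1, 2 and 3. Gene bodies held 90.1% of the SNV sites, and 176 genes held at least 10.

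**Figure D4:**
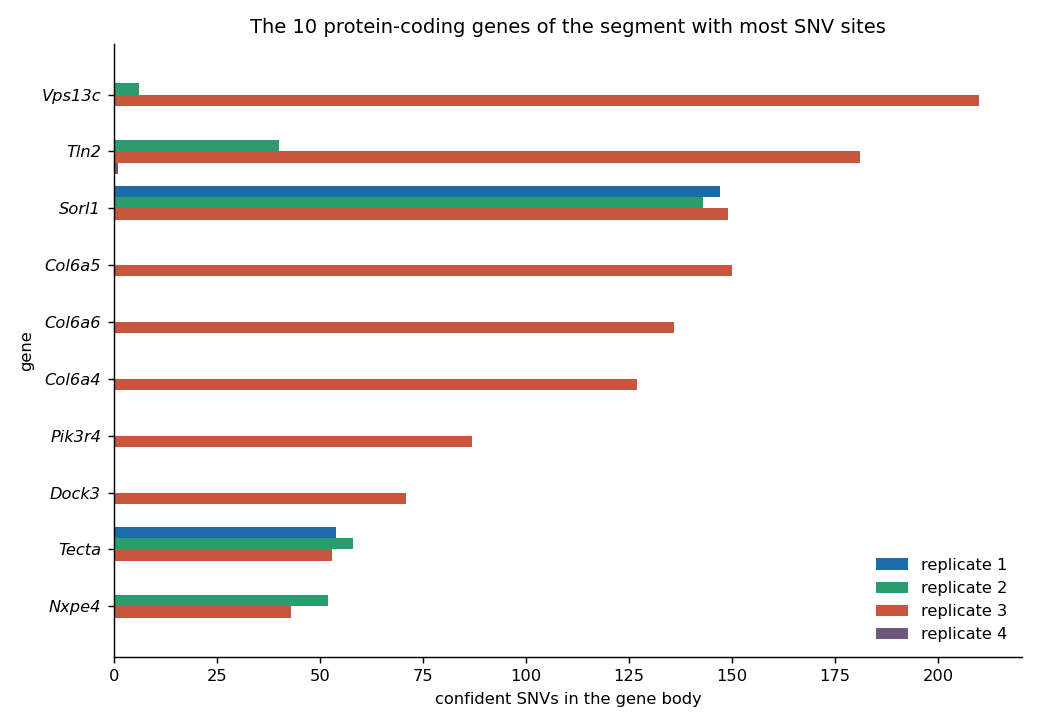
Confident SNVs in the gene body (horizontal axis) of the 10 protein-coding genes with most SNV sites (vertical axis), 1 bar per sample. Vps13c has the longest bar, 210 SNVs in replicate 3; Sorl1 and Tecta have bars of near-equal length in replicates 1, 2 and 3.

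The 15 genes with most SNV sites together held 1530 sites, 23.2% of all. They fall into groups by zone. Sorl1, Tecta and Ubash3b lie in zone A. Sorl1 (41964709 to 42124297), a sorting receptor of the endosome, held 147, 143 and 149 SNVs in replicates 1, 2 and 3 at median fractions of 0.462, 0.469 and 0.385, and none in replicate 4. Tecta, which encodes a protein of the tectorial membrane of the inner ear, held 54, 58 and 53. Ubash3b, a phosphatase that dampens receptor signalling in blood cells, held 40, 39 and 37 at medians of 0.514, 0.476 and 0.352. Counts within each of these genes differed by at most 6 between carriers.

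Nxpe4, at the start of zone B, held 52 and 43 SNVs in replicates 2 and 3. Vps13c (67840316 to 67997744) held 212 sites and Tln2 (67217085 to 67634045) 206, most of them in replicate 3, with 210 and 181. Their median fractions in replicate 3 were 0.375 and 0.358. Replicate 4 held 1 SNV in Tln2 and none in the other 14 genes.

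The other 9 genes lie in zone C, and their SNVs were found in replicate 3. A run of neighbours around 105 to 107 Mb led: Pik3r4, Col6a6, Col6a5 and Col6a4, which lie side by side, held 87, 136, 150 and 127 SNVs. The Col6a genes encode chains of type VI collagen, and Pik3r4 the regulatory subunit of the class III PI3-kinase complex. Their medians were 0.348, 0.365, 0.349 and 0.388, at median depths of 42, 69, 73.5 and 57 reads. Dock3, a guanine nucleotide exchange factor for RAC, held 71. Col7a1, the chain of type VII collagen, and Als2cl held 52 each, and Cpne4, a calcium-dependent membrane-binding protein, 48. The bins from 105 to 106, 106 to 107 and 107 to 108 Mb held 543, 495 and 345 SNVs of replicate 3.

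The order of genes by count was not that of their length. Per 10 kb of gene body, Als2cl held 25.5 SNV sites, Pik3r4 19.5 and Col7a1 16.6, against 2.09 in Dock3 and 1.03 in Cpne4. Over 384 genes that overlap zone C, Spearman's rho between length and SNVs of replicate 3 was 0.219. This is a description across genes, which share libraries and exon capture.

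The genes with most indels were Vps13c with 24, Tln2 with 15, Sorl1 and Atp2c1 with 13 each, and Col6a5 with 12. Atp2c1, which encodes a calcium and manganese pump of the Golgi, held all 13 in replicate 3, with 45 SNVs at a median fraction of 0.385. The indels of Sorl1 were spread as 10, 11 and 10 over replicates 1, 2 and 3, with 1 in replicate 4.

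Lists of genes by role were read against the 54.9% of all genes in the stretch with an SNV and the median of 1 site per gene. Of the 12 genes of DNA damage and repair, 8 held an SNV, with a median of 2 sites. Of 15 regulators of chromatin and transcription in blood it was 9, with a median of 4. Of 18 genes of RAS, MAPK, PI3K and TGF-beta signalling it was 10, with a median of 3. Of 19 immune and haematopoietic receptors and effectors it was 14, with a median of 2. Of 121 genes in large or repetitive families, kept as a control list, it was 37, with a median of 0; 31 of 105 olfactory receptor genes and 4 of 14 Zfp genes held one. In the 4 lists of roles, 7 of 13 genes inside zone A, 10 of 14 in zone B, 22 of 27 in zone C and 2 of 2 in zone D held an SNV, and 0 of 8 before zone A did. Of all genes inside zone A, 46.4%, 46.8% and 46.4% were hit in replicates 1, 2 and 3. In zone B it was 54.4% and 56.1% in replicates 2 and 3. In zone C it was 74.9% in replicate 3, and in zone D 73.0% in replicate 1. These shares are per carrier, while the list counts are over all samples.

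In the repair list, Rad54l2, a helicase-like gene of the SNF2 family, held 21 SNVs and Parp3, a poly(ADP-ribose) polymerase, 16, both in replicate 3, at median fractions of 0.373 and 0.374. Topbp1, an activator of the ATR kinase, held 8 SNVs and its partner gene Atrip 7, in replicate 3. The DNA glycosylase gene Neil1 held 3 in each of replicates 2 and 3. The damage kinase gene Atm held 2 SNVs in replicates 2 and 3, one of them with 52 of 98 and 45 of 120 variant reads. The kinase gene Atr held 1 in replicate 3, with 50 of 118 reads. Trex1, an exonuclease gene, held 2. Chek1, H2ax and Npat held no call.

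In the chromatin and transcription list, Smarcc1, a subunit of the BAF remodelling complex, held 30 SNVs and the cohesin subunit gene Stag1 held 23, all in replicate 3, at medians of 0.409 and 0.413. Stag1 also held 7 indels. Kmt2a held 11, 11 and 12 SNVs in replicates 1, 2 and 3 at medians of 0.450, 0.569 and 0.384. Zbtb16, a zinc finger repressor, held 14 and 16 in replicates 2 and 3. Sin3a, a co-repressor scaffold, held 8 in each of these, and Pml, the scaffold of nuclear bodies, held 4 in each. Tcf12, Rfx7 and the H3 lysine 36 methyltransferase gene Setd2 held 10, 8 and 2 in replicate 3. Carm1 held 1 indel, in replicate 2. Dnmt1, Smarca4, Fli1, Ets1 and Bcl9l held no call.

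In the signalling list, Arhgef12, an exchange factor for RHOA, held 25, 26 and 27 SNVs in replicates 1, 2 and 3 at medians of 0.492, 0.481 and 0.387. Rasgrf1, an exchange factor for RAS, held 22 in replicate 3. Nprl2, a component of the GATOR1 complex that restrains mTORC1, and its neighbour Rassf1, a RAS-association domain gene, held 16 each in replicate 3. The receptor gene Tgfbr2 held 18 SNVs in replicate 1, at a median of 0.452 in zone D, and none in replicates 2, 3 and 4. Map2k5, Smad3 and Smad6 held 9, 2 and 5 sites, and Dusp7, a phosphatase of ERK, held 4 in replicate 3. Tyk2 held 1 indel, in replicate 4. Cbl, Csk, Map2k1, Rasa2, Pik3cb, Mras and Rhoa held no call. A gene without a call may not have been captured deeply enough, since the files list variants and not covered bases.

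In the immune list, Tlr9, a receptor for unmethylated CpG DNA, held 19 SNVs in replicate 3 and Myd88, the adaptor of Toll-like receptors, 9 in replicate 1. Ncam1 held 23 in each of replicates 2 and 3 at medians of 0.481 and 0.375. Mst1r, a receptor tyrosine kinase gene, held 11 in replicate 3, and Camp, the cathelicidin gene of neutrophils, 10. Cd276 held 7 and 5 in replicates 2 and 3. The T cell receptor subunit genes Cd3g and Cd3d held 4 and 2 SNVs in each of replicates 1, 2 and 3, Cd3e held 3, 3 and 2, and Thy1 held 4 in each. Il10ra held 1 SNV in the same 3 samples. Ngp, Ltf and Ccrl2 held 1 each in replicate 3, and Jaml held only an indel.

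Transitions, changes between A and G or between C and T, made up 72.5% (exact 95% interval 70.2 to 74.8), 73.4% (71.5 to 75.3), 73.7% (72.6 to 74.8) and 49.02% (34.8 to 63.4) of SNVs in the stretch in replicates 1 to 4. In the rest of the genome they made up 68.8%, 69.1%, 70.0% and 69.1%. The difference in percentage points, stretch minus rest, was 3.75, 4.31, 3.73 and -20.1. Its mean was -2.07 ± 12.01 (SD, n = 4), and it was higher in 3 of 4 samples (p = 1, exact two-sided sign-flip permutation test). The smallest p that 4 samples allow is 0.125. Without replicate 4 the direction turned, with a mean of 3.93 ± 0.327 (n = 3, p = 0.25 by the same exact permutation test). Replicates 1, 2 and 3 shared many of these SNVs, so their differences are not independent. Neither the SD nor the permutation test allows for that. The intervals given for the shares cover counting error only.

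In replicates 1, 2 and 3 both kinds of transition had a higher share in the stretch than in the rest of the genome. C-to-T changes, counted on either strand, made up 37.6%, 37.5% and 36.7% of SNVs in the stretch and 34.8%, 34.9% and 35.4% in the rest of the genome. T-to-C changes made up 35.0%, 35.9% and 37.0% in the stretch and 34.0%, 34.2% and 34.6% in the rest. Each zone had a like share among its carriers, with 73.0%, 73.5% and 74.1% transitions in zone A, 74.3% and 73.1% in zone B, 73.9% in zone C and 74.3% in zone D. Carriers of zones A and B mostly held the same sites, so their shares are not separate measurements. Replicate 4 differed in T-to-C changes, at 15.7% of 51 SNVs in the stretch and 34.3% in the rest of the genome, and in T-to-G changes, at 21.6% (11.3 to 35.3) in the stretch and 8.35% in the rest.

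**Figure D5:**
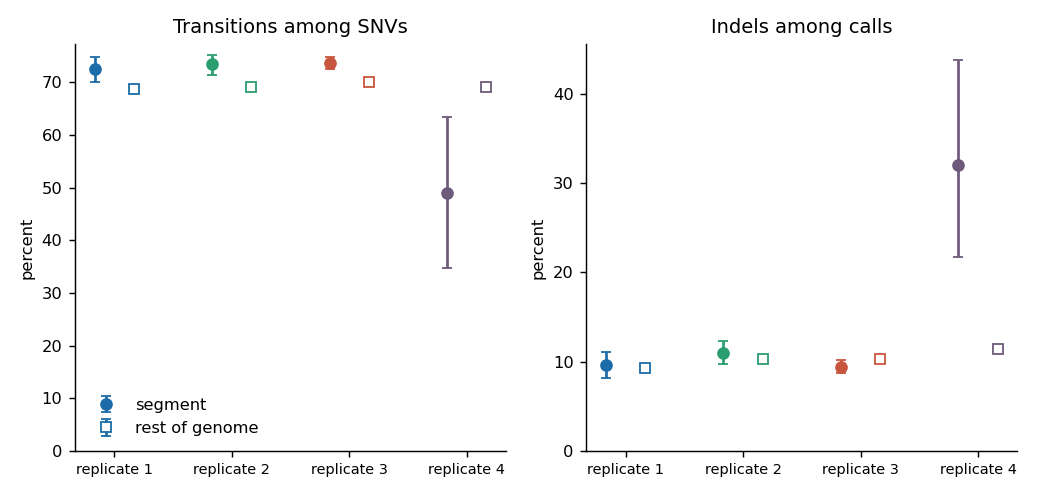
Percent of SNVs that are transitions (left panel) and percent of calls that are indels (right panel) per sample, with the stretch as filled circles and the rest of the genome as open squares; bars are exact 95% intervals for counting error. Replicates 1 to 3 have 72.5% to 73.7% transitions in the stretch, and replicate 4 has 49.02% with a wide interval.

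Indels made up 9.56%, 11.0%, 9.40% and 32.0% of the calls in the stretch in replicates 1 to 4, and 9.24%, 10.3%, 10.3% and 11.5% in the rest of the genome. The difference in percentage points, stretch minus rest, was 0.319, 0.678, -0.901 and 20.5, with a mean of 5.16 ± 10.3 (SD, n = 4; p = 0.5, exact two-sided sign-flip permutation test). Replicate 4 set the size of the mean, which was 0.0319 without it. Of the 767 indel sites, 443 were deletions and 324 insertions, 58.1% changed a single base, 14.0% had a length that is a multiple of 3, and the longest was 33 bases. All 24 indels of replicate 4 changed a single base.

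Promoter windows, from 250 bases before to 50 after the RefSeq start (GRCm38.p6, the build of mm10), numbered 1648 for 1336 genes of the stretch, and 49 windows of 47 genes held 65 SNVs. The reference base of every such SNV matched the RefSeq sequence. At 9 of them (13.8%, exact 95% interval 6.53 to 24.7) the base was part of a CpG, and 8.42% of the promoter bases were. Some windows belong to starts that lie inside a gene body. The sequence around the SNVs before 3 genes, where the printed bases lie outside the gene body, is written from 5′ to 3′ on the gene's strand, with the reference base at each SNV in capitals.

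Olfr986, zone A, plus strand, chr9:40187001-40187078: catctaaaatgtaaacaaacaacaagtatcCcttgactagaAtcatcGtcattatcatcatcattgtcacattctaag

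Rnf26, zone A, minus strand, chr9:44113088-44113148: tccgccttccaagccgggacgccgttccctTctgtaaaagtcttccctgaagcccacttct

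Camp, zone C, minus strand, chr9:109849457-109849489: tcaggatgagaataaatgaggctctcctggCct

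Counting from 1 at the 5′ end of each printed sequence, the changes were C31T, A42C and G48A before the olfactory receptor gene Olfr986. Their fractions were 0.50, 0.414 and 0.389 in replicate 1, 0.615, 0.548 and 0.545 in replicate 2, and 0.571, 0.523 and 0.50 in replicate 3, at depths of 18 to 46 reads. Before Rnf26, a ubiquitin ligase gene, T31C had 25 of 52, 25 of 63 and 31 of 70 variant reads in replicates 1, 2 and 3. Before Camp, C31T, 3 bases from the start, had 6 of 20 reads in replicate 3. The set of samples at each of these sites is that of its zone.

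Of the 51 SNVs of replicate 4, 44 were also confident in another sample and 17 in all 4. Another SNV of the same sample lay within 100 bases at 44 of them (86.3%), against 63.6%, 57.9% and 62.0% of the SNVs of the stretch in replicates 1, 2 and 3. In zone C, which replicates 1, 2 and 4 did not carry, these shares were 73.5%, 89.5% and 91.7% of 34, 19 and 36 SNVs. Reads at the 51 SNVs of replicate 4 had a median mapping quality of 35.9. It was 60 in replicates 1 to 3 and in the rest of the genome of replicate 4. In the cluster between Rpusd4 and Cdon the depth at confident sites reached 5898, 3663, 1216 and 505 reads in replicates 1 to 4, with fractions between 0.362 and 0.782. A second cluster of 14 SNVs in Cdv3 (103365266 to 103365458) had 12, 7, 12 and 11 of its sites confident in replicates 1 to 4. At 2 SNVs, at 38189710 between Olfr891 and Olfr893 and at 50640183 in Dlat, the fraction was 1 in every sample, over 61 to 126 reads.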

How the data were processed

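The samples are exome captures read as pairs on the BGISEQ500 instrument, per the labels' protocols. For every sample there is a SpeedSeq variant file, made with freeBayes 0.9.21 against mm10, and its quality is a score on the Phred scale, as the authors deposited it and per the file headers. There are also VarScan2 tables of SNVs and indels with read counts and variant frequencies, per the file headers. The builds mm10 and GRCm38 are from the submitters' processing notes; the sources used here give neither aligner nor duplicate handling.

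Alleles of equal length were split into single-base changes and others trimmed to 1 anchor base. A site counted in a sample when both callers passed it with the same position and bases and the SpeedSeq score was at least 20. Median fractions used SNVs with at least 30 reads. Genes came from RefSeq (GRCm38.p6) as starts and ends only. Transition and indel shares were compared over samples by exact sign-flip permutation, which does not allow for sites that carriers share. Intervals are exact Clopper-Pearson over counts of SNVs or calls. They cover only counting error, because neighbouring sites are not independent. In the stretch no confident SNV lay under a fraction of 0.20, so rarer variants are not covered.

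Named genes were the 15 with most SNV sites, list genes with a call, genes at block edges, 5 with most indels, 5 with discordant fractions and those whose sequence is printed; some of these genes are not reported here. The stretch, lists and tests were chosen with earlier results of these data known. The steps were checked on simulated blocks. Python 3.11.15 with pandas 2.3.3, numpy 2.4.6, scipy 1.17.1 and matplotlib 3.10.9 was used.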

Additional observations from a re-analysis of the deposited data

Results flagged for a closer look

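Replicate 4 stood apart from the other 3 samples in 4 of 9 measures of the stretch. Each time the gap to the nearest sample took up most of the range of all 4. For independent values of equal spread, chance flags about 1 in 20 such groups for each single measure. That rate does not apply here, since replicates 1 to 3 shared many SNVs and replicate 4 rests on far fewer calls. The measures draw on the same calls, so the 4 flags are not independent. For mapping quality the other 3 samples were tied, so any different value would be flagged. In replicate 4, transitions made up 49.02% of SNVs, against 72.5% to 73.7% in replicates 1 to 3. Indels made up 32% of its calls, against 9.40% to 11.0%. Of its SNVs with at least 30 reads, 16.3% were at a fraction of 0.65 or more, against 0.361% to 2.48%. The median mapping quality at its SNVs was 35.9, against 60 in each of the other 3. All 4 values rest on the 51 SNVs and 24 indels of replicate 4, which carried no zone. Replicates 1 and 2 did not carry zone C either. Transitions made up 47.1%, 36.8% and 47.2% of the 34, 19 and 36 SNVs there in replicates 1, 2 and 4. In zone B, which replicates 1 and 4 did not carry, they made up 85.7% and 60% of 7 and 5 SNVs. The low transition share in zone C was thus not seen in replicate 4 alone.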

How the results depend on the processing

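Of 63 alternative values for 7 results, 56 stayed within 1.5 times the value given (counts), within 1 SD (values with no test) or on the same side of the 0.05 threshold in the same direction (shares). One of the 56, the difference in median fraction, was 0.013 without replicate 4, against -0.013 over all samples, a shift of less than 1 SD with the sign turned. With 4 samples or fewer no exact p could fall below 0.05, so for shares only a turn of direction could be flagged. The difference in indel share without replicate 4 thus counted among the 56, at 0.0319 against 5.16 percentage points over all samples. Blocks depended on the chaining rule: gaps of up to 0.5 Mb gave 34 and VarScan2 alone gave 11, against 6, and the cause was not tested. Leaving out 1 sample at a time moved the mean SNV count to between 1213 (without replicate 3) and 3176 (without replicate 4), the number of SNV sites to between 2591 (without replicate 3) and 6576 (without replicate 4), and the mean of private SNVs to between 466 (without replicate 3) and 1743.3 (without replicate 2). The difference in transition share lay between -4.20 (without replicate 2) and 3.93 percentage points (without replicate 4), where its direction turned. The block count was 6 when sites also confident in replicate 4 were left out, an alternative chosen after seeing the data. Samples could not be paired between groups because there is 1 group. The pairing used was within each sample, stretch against rest. With 51 SNVs, shares of replicate 4 are imprecise, and 4 samples cannot give an exact p below 0.125. Depth limits sharing: a site under 10 reads in 1 carrier counts as missing there.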
